A study of Mus musculus with 6 samples.

Results

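The SLC25 family of solute carriers was described in the left ventricle of C57BL/6J mice. All genes of the deposited table whose symbol is Slc25a followed by a number were taken, which gave 47 of 52550 listed genes. The 3 libraries named PKI carry the label of PGC-1α overexpression, the 3 WT libraries that of wild-type mice, and both groups share strain, tissue and an age of 12 months. What drives the overexpression, and in which cells, was not found in the labels. The labels number the samples within a group without naming the animals, so the p-values rest on the spread among these 3 samples a group, part of which may be technical. Levels are in FPKM (fragments scaled by length of transcript and mapped total), which can be set side by side between genes.

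Carriers of the SLC25 family sit mostly in the inner mitochondrial membrane, which is closed to charged metabolites. Each is built from repeats of a pair of membrane helices and lets a narrow set of substrates through, often in exchange for one another. They hand ADP and phosphate to the ATP synthase, ATP to the cytosol, acylcarnitines to fatty acid oxidation, and malate, aspartate and glutamate to the shuttles that bring reducing equivalents of cytosolic NADH into the matrix. The heart, which makes most of its ATP in mitochondria, is known for a very high content of the ADP/ATP carrier.

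Ppargc1a, the gene of PGC-1α, a coactivator of mitochondrial and oxidative genes, was no higher under the PKI label. It was at 11.6, 11.8 and 11.4 FPKM in the libraries labelled PKI, against 14.2, 12.8 and 12.4 FPKM in the WT libraries. All values of the libraries labelled PKI lay below all WT values (log2 change −0.16, adjusted p = 0.0967 in limma; exact two-sided permutation p = 0.1, the smallest that 3 against 3 allow). The values of Ppargc1a thus do not show the labelled overexpression. Whether they count the overexpressed transcript was not tested. Each direction below is that of libraries labelled PKI against WT libraries. All 10 cardiomyocyte markers were detected, with summed levels of 11644 to 12547 FPKM in the libraries labelled PKI and 11505 to 12297 FPKM in the WT libraries. Of these markers 2 were called higher and 4 lower by the test used below, and after scaling (below) 0 were higher and 8 lower, with median log2 changes of −0.09 and −0.38. Actc1, among those called higher as deposited, was the largest part of each sum. Its mean ± SD was 4599 ± 278 FPKM in libraries labelled PKI and 3691 ± 264 FPKM in WT libraries. Genes of the mitochondrial genome and 7 nuclear copies of them held 78.0% to 78.2% of all FPKM in the libraries labelled PKI and 81.8% to 82.3% in the WT libraries. The absolute depth is unknown. The most common ratio of low values between libraries placed the value of a single fragment at 0.901 to 1.09 times that of PKI replicate 1, with WT replicate 3 highest and hence shallowest.

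Of the 47 carriers, 32 reached a mean of 1 FPKM across the libraries and were tested, 12 were detected below that level and 3 (Slc25a41, Slc25a48 and Slc25a54) were listed at 0 in every library. At an adjusted p under 0.05 (limma on log2(FPKM + 1), Benjamini-Hochberg over 9907 genes), 6 carriers were higher and 4 lower in the libraries labelled PKI. Over all tested genes 36.4% were called higher, 2.96% lower and 39.4% either way. The carriers called higher were Slc25a51, Slc25a5, Slc25a23, Slc25a36, Slc25a35 and Slc25a1. Those called lower were Slc25a34, Slc25a20, Slc25a12 and Slc25a3. The median log2 change of the tested carriers was 0.10, and that of all tested genes 0.21. The groups did not overlap in 10 carriers above and 7 below WT, beside 51.3% and 4.53% of all tested genes. Without PKI replicate 3, 2 carriers were called lower and 7 higher. Without PKI replicate 1, 3 were called lower and 4 higher. Over all tested genes, 3609 higher and 293 lower calls became 2325 and 173 without PKI replicate 3, and 2179 and 165 without WT replicate 3.

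The whole distribution of changes depended on scaling. FPKM are relative to a library's total, and the part outside the mitochondrial genome and its copies summed to 155718 to 158661 FPKM in the libraries labelled PKI and 135646 to 136011 FPKM in the WT libraries. When each library was divided by its size factor, a median of ratios (1.10 to 1.13 for libraries labelled PKI and 0.898 to 0.922 for WT libraries, "after scaling" below), the median over all tested genes moved from 0.21 to −0.02. Such division centres the changes by construction, so this move is set by the method. After scaling, 2 carriers were higher (Slc25a5 and Slc25a23) and 10 lower (Slc25a34, Slc25a20, Slc25a42, Slc25a3, Slc25a12, Slc25a4, Slc25a13, Slc25a11, Slc25a46 and Slc25a16), against 7.82% higher, 9.18% lower and 17.0% either way over all tested genes. The median of the carriers was then −0.12. The shares over all tested genes, as deposited and after scaling, are also the measure for each set of carriers or genes below. The groups did not overlap in 5 carriers above and 15 below WT, beside 16.6% and 20.7% of all tested genes. After scaling and without PKI replicate 3, 1 carrier was higher and 6 were lower, and Slc25a5 was no longer called (log2 0.39, adjusted p = 0.0535). Without WT replicate 3, 3 were higher and 6 lower. Slc25a5 and Slc25a23 were called higher, and Slc25a34 and Slc25a20 lower, in each of 16 alternative settings, which include 3 scalings and leaving out each library on deposited values.

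**Figure D1:**
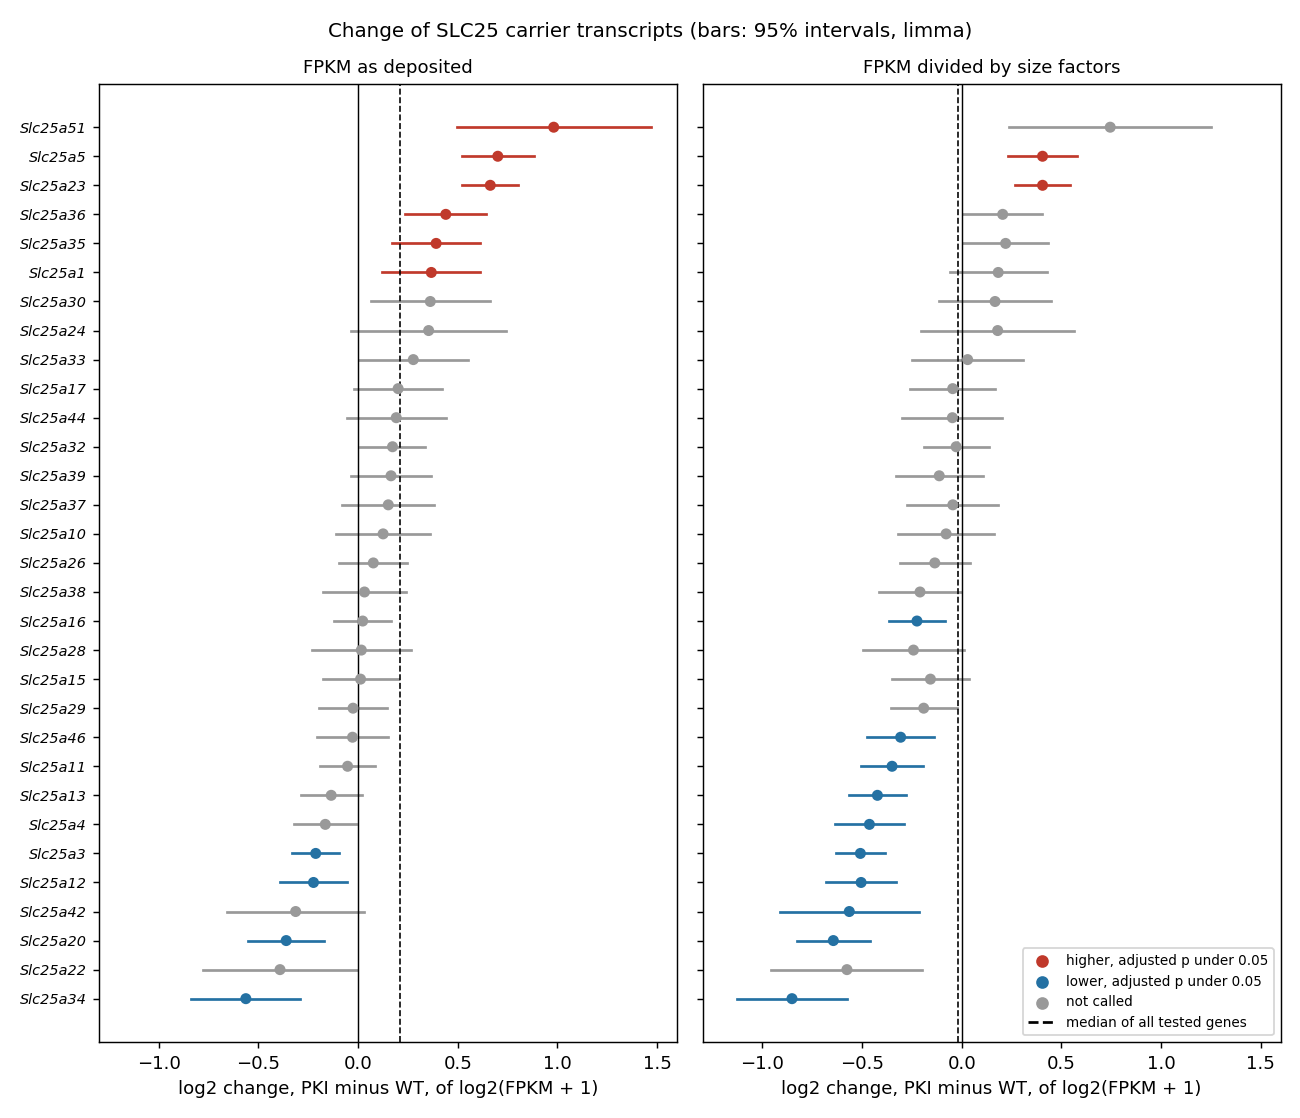
Log2 change of the tested carriers that are reported by name, libraries labelled PKI minus WT libraries, on the log2(FPKM + 1) scale, with 95% intervals from limma; FPKM as deposited are on the left and FPKM divided by size factors on the right. Slc25a51, Slc25a5 and Slc25a23 stand highest and Slc25a34 lowest in both, while the dashed median of all tested genes moves from 0.21 to −0.02, as the division sets by construction.

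Of the 6 carriers called higher, 5 were of low level, and the 4 called lower were all among the 10 most abundant. Of the 10 tested carriers with a mean of at least 10 FPKM, 1 was called higher and 4 lower, with a median log2 change of −0.15. The 2148 tested genes of that level had a median of 0.21, with 920 called higher and 136 lower. Of the 22 carriers between 1 and 10 FPKM, 5 were higher and 0 lower, with a median of 0.18, beside 0.21 for the 7759 genes of that level. After scaling, the medians were −0.44 and −0.05 for the carriers and −0.07 and −0.01 for the genes of these levels. The level limit of 10 FPKM was chosen after the values were seen.

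**Figure D2:**
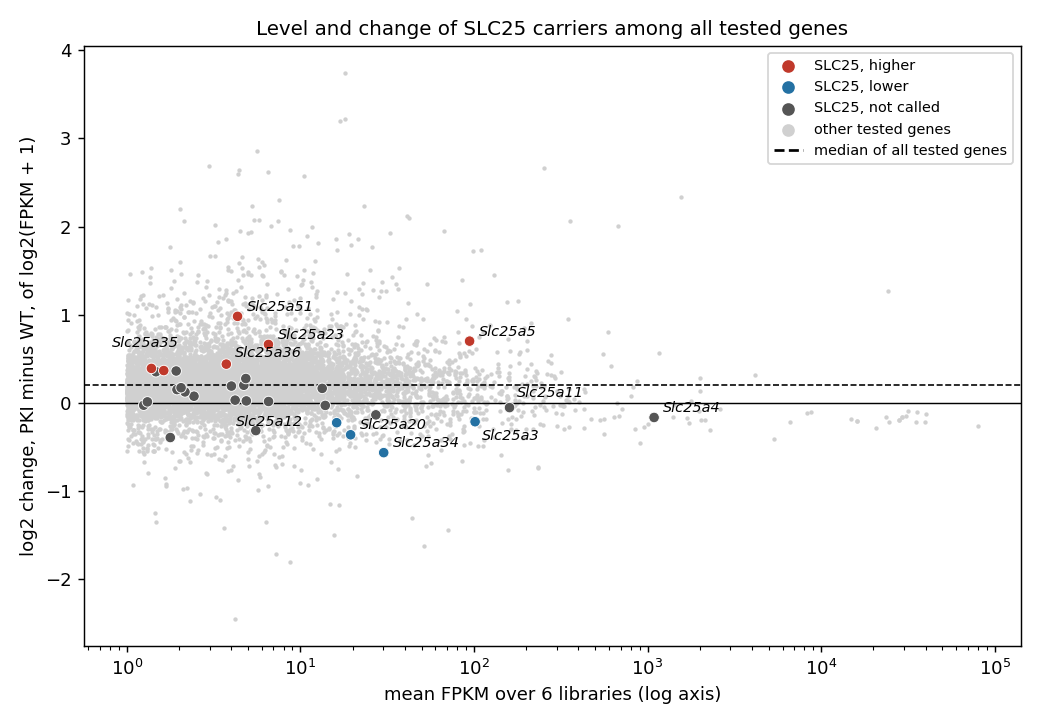
Mean FPKM over the 6 libraries (log axis) against the log2 change on the log2(FPKM + 1) scale for all 9907 tested genes, with the tested SLC25 carriers that are reported by name on top. Of the carriers above 10 FPKM only Slc25a5 lies above the dashed median of all genes, 0.21.

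Family members together summed to 1685, 1486 and 1608 FPKM in the libraries labelled PKI, against 1721, 1658 and 1710.2 FPKM in the WT libraries. The groups overlapped, since PKI replicate 1 lay above WT replicate 2. As a share of the FPKM outside the mitochondrial genome, this was 0.498% ± 0.0251 in libraries labelled PKI and 0.533% ± 0.0120 in WT libraries (SD, n = 3 each; exact two-sided permutation p = 0.2). With the nuclear copies of mitochondrial genes also left out of the total, the share was 1.01% ± 0.0542 in libraries labelled PKI and 1.25% ± 0.0256 in WT libraries, without overlap (exact two-sided p = 0.1, the smallest possible). Slc25a4 alone held 64.6% ± 1.45 of the family's FPKM in libraries labelled PKI and 67.9% ± 0.217 in WT libraries. Slc25a5 held 7.36% ± 0.284 of it in libraries labelled PKI and 4.23% ± 0.332 in WT libraries, and neither share overlapped between the groups (exact two-sided permutation p = 0.1 for each). The 4 leading genes, Slc25a4, Slc25a11, Slc25a3 and Slc25a5, made up 87.8% ± 0.732 of the family in libraries labelled PKI and 88.2% ± 0.460 in WT libraries (exact two-sided permutation p = 0.5).

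The sequences before the start of 4 of these genes are shown because Slc25a4 and Slc25a5, whose proteins do the same exchange, changed in ratio without overlap between the groups, and because Slc25a3 and Slc25a20 were the called carriers with a searched motif. Each runs from 250 bases before to 50 bases after the RefSeq gene start, 5′ to 3′ on the gene's strand (GRCm38.p6). The RefSeq starts differ from the GENCODE M21 gene positions given below. By those positions, the Slc25a5 window ends before the gene and most of the Slc25a4 window lies inside it. Capitals mark the NRF1 letters in Slc25a3 and the ETS letters in Slc25a20, both found on the opposite strand.
Slc25a4, chr8:46211013-46211312, minus strand: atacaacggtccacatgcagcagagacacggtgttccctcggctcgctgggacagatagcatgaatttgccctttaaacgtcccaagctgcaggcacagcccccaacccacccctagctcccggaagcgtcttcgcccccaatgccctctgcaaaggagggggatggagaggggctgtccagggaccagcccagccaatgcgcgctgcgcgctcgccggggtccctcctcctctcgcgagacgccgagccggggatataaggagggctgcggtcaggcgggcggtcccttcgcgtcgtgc
Slc25a5, chrX:36795347-36795646, plus strand: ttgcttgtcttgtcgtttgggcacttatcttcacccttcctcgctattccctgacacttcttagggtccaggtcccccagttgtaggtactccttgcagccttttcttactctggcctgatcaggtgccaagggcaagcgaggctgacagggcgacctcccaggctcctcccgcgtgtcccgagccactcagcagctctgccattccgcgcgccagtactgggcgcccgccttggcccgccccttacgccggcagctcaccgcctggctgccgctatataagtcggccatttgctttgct
Slc25a3, chr10:91123918-91124217, minus strand: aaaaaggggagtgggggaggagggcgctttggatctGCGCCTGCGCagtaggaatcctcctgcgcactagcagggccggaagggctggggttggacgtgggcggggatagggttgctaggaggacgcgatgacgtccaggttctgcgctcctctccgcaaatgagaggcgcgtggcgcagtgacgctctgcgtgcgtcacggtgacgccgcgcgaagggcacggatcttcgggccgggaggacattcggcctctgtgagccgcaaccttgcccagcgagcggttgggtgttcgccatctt
Slc25a20, chr9:108661886-108662185, plus strand: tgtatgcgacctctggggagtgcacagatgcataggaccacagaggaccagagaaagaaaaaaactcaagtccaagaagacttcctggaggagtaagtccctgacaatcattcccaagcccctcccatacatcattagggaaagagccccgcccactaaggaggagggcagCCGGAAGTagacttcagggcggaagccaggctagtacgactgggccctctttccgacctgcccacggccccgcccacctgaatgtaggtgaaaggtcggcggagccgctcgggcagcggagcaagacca

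Of the 47 carriers, 36 had a promoter in the RefSeq table. The response element of the oestrogen-related receptors, partners of PGC-1α, written TNAAGGTCA and searched on both strands, was in 0 of 36 carrier genes and in 1.43% of 27025 genes in all. The NRF1 letters, GCGCA, then any base, then GCGC, were in 2 (Slc25a3 and the testis carrier gene Slc25a31), or 5.56%, beside 5.19% of all genes. The ETS letters ACTTCCGG were in 1 (Slc25a20), or 2.78%, beside 4.31%. No sequence shown held more than 1 of the 3 motifs. The windows of Slc25a4 and Slc25a5 held none of the 3. The 46 promoters of these carriers had a median of 15 CG pairs, beside 7 over all 32851 promoters. Their median GC content was 59.3%, beside 52.7%. The promoters compared were not matched by level or type of gene.

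Of 5 tested carriers of ADP and ATP, phosphate and ATP-Mg, 2 were called higher and 1 lower, and after scaling 2 were higher and 2 lower. Their median log2 change was 0.35 as deposited and 0.18 after scaling. The ADP/ATP carriers exchange cytosolic ADP for matrix ATP. The isoform of heart and skeletal muscle, ANT1, is encoded by Slc25a4 (ENSMUSG00000031633, chromosome 8: 46206797 to 46211284, minus strand, GRCm38). Slc25a4 was at 1108, 936 and 1047 FPKM in the libraries labelled PKI, against 1169.8, 1129 and 1157 FPKM in the WT libraries. All values of libraries labelled PKI lay below all WT values, and PKI replicate 2 was lowest. The log2 change of −0.16 (SE 0.07) did not pass the test (adjusted p = 0.0845) and passed it after scaling (−0.46, adjusted p = 0.00688). Without PKI replicate 2 the log2 change as deposited was −0.097 (adjusted p = 0.163).

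ANT2, the isoform of dividing and non-muscle cells, is encoded by Slc25a5 (ENSMUSG00000016319, chromosome X: 36795651 to 36798807, plus strand). Slc25a5 was at 119, 113 and 118 FPKM in the libraries labelled PKI, against 79.3, 66.0 and 70.1 FPKM in the WT libraries. The groups lay far apart, and Slc25a5 rose 1.63-fold in the libraries labelled PKI (log2 0.70, SE 0.08, adjusted p = 0.00127; 0.41 after scaling, adjusted p = 0.0120). Slc25a5 has processed copies in the genome, and how their reads were divided is unknown. ANT4, encoded by Slc25a31 and known from the testis, was at 0.110 FPKM or less in all 6 libraries.

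The ratio of Slc25a4 to Slc25a5 within a library does not depend on scaling between libraries. It was 9.30, 8.25 and 8.84 in libraries labelled PKI, against 14.8, 17.1 and 16.5 in WT libraries. The mean was 8.79 ± 0.528 in libraries labelled PKI and 16.1 ± 1.22 in WT libraries (SD, n = 3 each), a log2 difference of −0.87, without overlap. Its exact permutation p, two-sided, was 0.1, the smallest possible, and 0.25 when adjusted over the 5 ratios tested.

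Markers of other cell types stood beside the rise of Slc25a5 as follows. Of all tested genes 36.4% were called higher as deposited and 7.82% after scaling. Of 10 fibroblast markers 9 were called higher, both as deposited and after scaling. The levels of the 10 summed to 278 to 356 FPKM in libraries labelled PKI and 90.8 to 134 FPKM in WT libraries. Of 9 tested macrophage markers 8 were higher, and 7 after scaling. The 10 listed macrophage markers summed to 214 to 232 FPKM in libraries labelled PKI and 71.3 to 110.2 FPKM in WT libraries. Of 8 endothelial markers 4 were higher, while after scaling 0 were higher and 1 was lower, with sums of 101 to 107 FPKM in libraries labelled PKI and 88.0 to 89.7 FPKM in WT libraries. Of 4 tested adipocyte markers 1 (Cidea) was higher, also after scaling. The 7 listed adipocyte markers summed to 74.7 to 79.1 FPKM in libraries labelled PKI and 58.9 to 71.03 FPKM in WT libraries. Most of each sum was Fabp4, which overlapped and was not called (57.4 ± 5.25 FPKM in libraries labelled PKI, against 53.1 ± 4.17 FPKM in WT). Adipoq and Plin1 lay under the level for testing and overlapped between the groups. Lep, at 0.0350 FPKM or less, was detected only in libraries labelled PKI. Of the 8 skeletal muscle markers only Mybpc2 reached the level for testing, and it was higher, also after scaling. Its values were 6.33, 9.84 and 9.33 FPKM in the libraries labelled PKI, against 1.24, 1.73 and 1.41 FPKM in the WT libraries. The 8 summed to 7.17 to 10.8 FPKM in libraries labelled PKI and 1.93 to 2.66 FPKM in WT libraries, most of it Mybpc2. Mylpf, the fast muscle light chain, lay lower without overlap, at 0.0852, 0.285 and 0.106 FPKM in the libraries labelled PKI, against 0.411, 0.504 and 0.325 FPKM in the WT libraries. Myh4 was at 0 in every library, which held for none of the other listed markers. The part of other cell types in the change of Slc25a5 was not tested. In these bulk samples a changed number of cells of a type and a changed amount of RNA per cell cannot be told apart.

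Phosphate enters the matrix with a proton through the product of Slc25a3 (ENSMUSG00000061904, chromosome 10: 91116574 to 91124059, minus strand), which is also known to carry copper to cytochrome oxidase. Slc25a3 was at 96.1, 92.2 and 93.7 FPKM in the libraries labelled PKI, against 111, 110.4 and 106 FPKM in the WT libraries. All values of libraries labelled PKI were below all WT values, and the fall of 1.16-fold passed the test (log2 −0.21, SE 0.05, adjusted p = 0.0174; −0.51 after scaling, adjusted p = 0.00148). The call was lost without PKI replicate 3 (adjusted p = 0.0593).

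The calcium-regulated carriers of ATP-Mg and phosphate set the adenine nucleotide content of the matrix. Slc25a23 (ENSMUSG00000046329, chromosome 17: 57043711 to 57059863, minus strand) was at 8.39, 8.08 and 8.30 FPKM in the libraries labelled PKI, against 4.97, 4.81 and 4.75 FPKM in the WT libraries. It had the smallest p of the family as deposited, though not after scaling, and rose 1.70-fold (log2 0.66, SE 0.06, adjusted p = 0.000813; 0.41 after scaling, adjusted p = 0.00538). Its relative Slc25a24 was at 1.76 ± 0.314 FPKM in libraries labelled PKI, against 1.18 ± 0.483 FPKM in WT, and was not called (log2 0.35, adjusted p = 0.123). Without WT replicate 1 it was called (log2 0.52, adjusted p = 0.0264), while without WT replicate 3 the log2 change was 0.21 (adjusted p = 0.321). Slc25a25 lay under the level for testing, at 0.966, 0.797 and 0.883 FPKM in the libraries labelled PKI, against 0.271, 0.452 and 0.386 FPKM in the WT libraries, without overlap. The last of them, Slc25a41, was listed at 0.

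**Figure D3:**
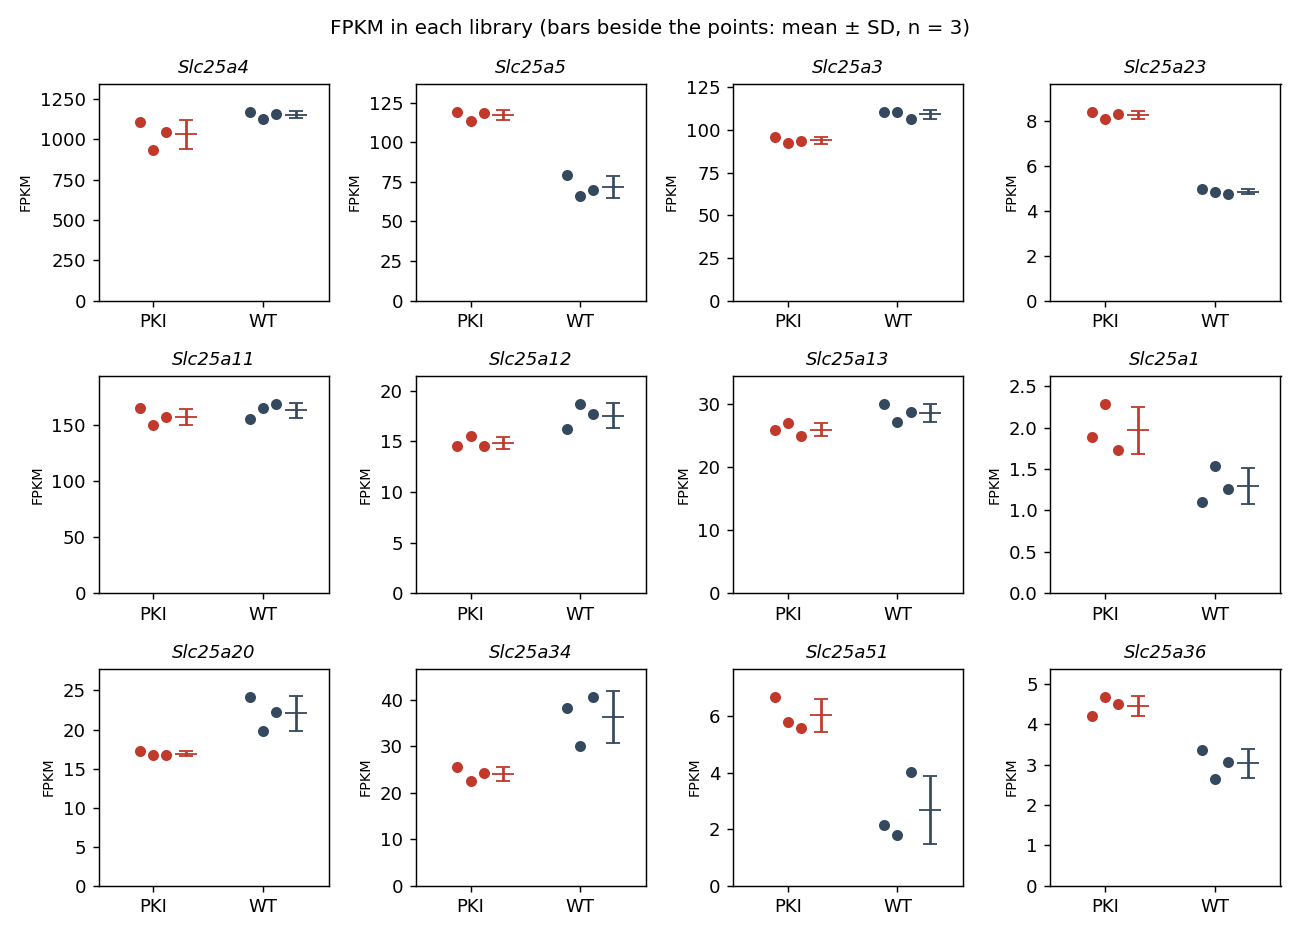
FPKM of 12 carriers in each of the 3 libraries labelled PKI and the 3 WT libraries, each panel with its own axis from 0, with the mean and SD beside the points. Slc25a5, Slc25a23, Slc25a51 and Slc25a36 are higher and Slc25a3, Slc25a20 and Slc25a34 lower in all libraries labelled PKI than in any WT library, while the values of Slc25a11 overlap.

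Of 5 tested carriers of di- and tricarboxylates and of aspartate and glutamate, 1 was higher and 1 lower, and after scaling 0 were higher and 3 lower, with median log2 changes of −0.05 and −0.35. Of the 3 carriers of the malate-aspartate shuttle 1 was called lower as deposited and all 3 were after scaling. All 3 lay above 10 FPKM. Of the 10 tested carriers at that level, 4 were lower as deposited and 8 after scaling. Of all 2148 tested genes there, 136 were lower as deposited and 438 after scaling. The count thus does not set the shuttle apart from other abundant carriers. The oxoglutarate/malate carrier gene Slc25a11 (ENSMUSG00000014606, chromosome 11: 70644196 to 70647479, minus strand), the second most abundant of the family, was at 165, 150.2 and 157 FPKM in the libraries labelled PKI, against 156, 166 and 168 FPKM in the WT libraries. The groups overlapped, and the log2 change was −0.05 (95% interval −0.192 to 0.0868, adjusted p = 0.491). After scaling it was −0.35 (adjusted p = 0.0137). Of its 2120 exon bases, 189 overlap exons of Rnf167 on the opposite strand. The aspartate/glutamate exchangers aralar and citrin drive the shuttle's aspartate out of the matrix. Aralar's gene Slc25a12 (ENSMUSG00000027010, chromosome 2: 71271063 to 71367749, minus strand) was at 14.5, 15.5 and 14.6 FPKM in the libraries labelled PKI, against 16.2, 18.6 and 17.7 FPKM in the WT libraries. It fell 1.18-fold without overlap (log2 −0.22, adjusted p = 0.0446; log2 −0.50, adjusted p = 0.00539 after scaling). The call was lost without PKI replicate 1 (adjusted p = 0.116), PKI replicate 2 (0.0577), PKI replicate 3 (0.1199), WT replicate 2 (0.121) or WT replicate 3 (0.116).

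Citrin's gene Slc25a13 (ENSMUSG00000015112, chromosome 6: 6041218 to 6217173, minus strand) was at 25.8, 27.0 and 24.9 FPKM in the libraries labelled PKI, against 29.9, 27.1 and 28.7 FPKM in the WT libraries. The lowest WT value lay just above the highest value of the libraries labelled PKI, and the change did not pass (log2 −0.14, adjusted p = 0.134; log2 −0.42, adjusted p = 0.00485 after scaling). The ratio of Slc25a12 to Slc25a13 was 0.573 ± 0.0110 in libraries labelled PKI and 0.616 ± 0.0737 in WT libraries (SD, n = 3 each), with overlap (exact two-sided permutation p = 0.5, 0.625 adjusted over 5 ratios). Of 6 enzymes of the malate-aspartate and glycerophosphate shuttles, 1 was higher and 0 lower, and after scaling 0 were higher and 2 lower, with median log2 changes of −0.07 and −0.30. Gpd1, the cytosolic glycerol-3-phosphate dehydrogenase, rose to 21.2 ± 1.78 FPKM in libraries labelled PKI, against 16.6 ± 1.24 FPKM in WT (log2 0.34, adjusted p = 0.0212; log2 0.05, adjusted p = 0.720 after scaling). The cytosolic and mitochondrial aspartate aminotransferase genes Got1 and Got2 were at log2 −0.23 and −0.10, not called, and were lower after scaling (−0.52 and −0.40).

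Slc25a1 (ENSMUSG00000003528, chromosome 16: 17925223 to 17928219, minus strand) encodes the citrate carrier, which supplies citrate for fatty acid synthesis in the cytosol. Slc25a1 was at 1.89, 2.28 and 1.73 FPKM in the libraries labelled PKI, against 1.10, 1.53 and 1.26 FPKM in the WT libraries. Its rise of 1.51-fold passed the test as deposited (log2 0.37, adjusted p = 0.0300) and did not after scaling (log2 0.18, adjusted p = 0.280). The call was lost without PKI replicate 1 (adjusted p = 0.0633), PKI replicate 2 (0.0744), WT replicate 1 (0.0751) or WT replicate 3 (0.0817). The dicarboxylate carrier gene Slc25a10, whose protein exchanges malate or succinate for phosphate, was at 2.67, 2.06 and 2.18 FPKM in the libraries labelled PKI, against 1.77, 2.05 and 2.26 FPKM in the WT libraries, with overlap (log2 0.13, adjusted p = 0.335). The ratio of Slc25a10 to Slc25a11 was 0.0146 ± 0.00137 in libraries labelled PKI and 0.0124 ± 0.00102 in WT libraries, a log2 difference of 0.24 without overlap (exact two-sided permutation p = 0.1, the smallest possible; 0.25 adjusted over 5 ratios). The oxodicarboxylate carrier gene Slc25a21 was at 0.0105 FPKM or less.

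Of 6 tested carriers of amino acids and acylcarnitines, Slc25a20 alone was called, lower both as deposited and after scaling, and the median log2 changes were −0.01 and −0.20. The carnitine/acylcarnitine carrier, encoded by Slc25a20 (ENSMUSG00000032602, chromosome 9: 108662088 to 108684641, plus strand), brings long-chain acylcarnitines into the matrix for β-oxidation. Slc25a20 was at 17.2, 16.7 and 16.7 FPKM in the libraries labelled PKI, against 24.2, 19.8 and 22.2 FPKM in the WT libraries. The 3 libraries labelled PKI lay close together and below all WT libraries, and Slc25a20 fell 1.31-fold (log2 −0.36, SE 0.08, adjusted p = 0.0147; −0.64 after scaling, adjusted p = 0.00259). Of its 5 partners in the carnitine shuttle, 3 were lower and 0 higher, and after scaling 4 were lower and 0 higher. Their median log2 changes were −0.17 as deposited and −0.46 after scaling. Over all tested genes 2.96% were called lower, and 9.18% after scaling. Of the 10 cardiomyocyte markers 2 were higher and 4 lower, and after scaling 0 and 8, with medians of −0.09 and −0.38. Carnitine acetyltransferase (Crat) was at 43.4 ± 1.45 FPKM in libraries labelled PKI, against 56.6 ± 2.04 FPKM in WT (log2 −0.38, adjusted p = 0.00424). The plasma membrane carnitine transporter gene Slc22a5 was at 3.51 ± 0.0603 FPKM in libraries labelled PKI, against 4.49 ± 0.398 FPKM in WT (log2 −0.28, adjusted p = 0.0247). Cpt1b, the muscle enzyme that makes acylcarnitines at the outer membrane, was called lower as well (log2 −0.17, adjusted p = 0.0334).

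Carriers of amino acids were not called in either direction as deposited. The glutamate carrier gene Slc25a22 was at 1.77, 0.824 and 1.69 FPKM in the libraries labelled PKI, against 2.09, 2.37 and 1.94 FPKM in the WT libraries, with PKI replicate 2 far below the rest. All values of libraries labelled PKI lay below all WT values, but the change did not pass (log2 −0.39, adjusted p = 0.0932; log2 −0.58, adjusted p = 0.0506 after scaling). Without PKI replicate 2 the log2 change was −0.20 (adjusted p = 0.129). The second glutamate carrier gene, Slc25a18, was at 0 to 0.1202 FPKM, so the ratio of the pair was not tested. The mitochondrial ornithine carrier gene Slc25a15 of the urea cycle was at 1.21, 1.38 and 1.38 FPKM in the libraries labelled PKI, against 1.15, 1.40 and 1.37 FPKM in the WT libraries (log2 0.01, adjusted p = 0.910). The carrier gene of basic amino acids, Slc25a29, was at 1.23 ± 0.113 FPKM in libraries labelled PKI, against 1.27 ± 0.0291 FPKM in WT (log2 −0.03, adjusted p = 0.788). Slc25a44, whose protein carries branched-chain amino acids in brown fat, was at 4.35 ± 0.684 FPKM in libraries labelled PKI, against 3.66 ± 0.255 FPKM in WT (log2 0.19, adjusted p = 0.177). The second ornithine carrier gene, Slc25a2, was at 0.112 FPKM or less.

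Among 9 carriers of cofactors and nucleotides, 2 were higher and 0 lower, and after scaling 0 were higher and 2 lower, with median log2 changes of 0.20 and −0.03. Slc25a51 (ENSMUSG00000045973, chromosome 4: 45395923 to 45408766, minus strand), which encodes the mitochondrial carrier of NAD, had the largest log2 change of the tested carriers. Slc25a51 was at 6.68, 5.81 and 5.59 FPKM in the libraries labelled PKI, against 2.16, 1.81 and 4.03 FPKM in the WT libraries. WT replicate 3 stood above the other WT libraries, and all libraries labelled PKI lay higher still. Slc25a51 rose 2.26-fold (log2 0.98, SE 0.21, adjusted p = 0.0117), and did not pass after scaling (log2 0.75, adjusted p = 0.0557).

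The pyrimidine nucleotide carriers bring building blocks for mitochondrial RNA and DNA into the matrix. Slc25a36 (ENSMUSG00000032449, chromosome 9: 97074961 to 97111157, minus strand) was at 4.20, 4.68 and 4.50 FPKM in the libraries labelled PKI, against 3.37, 2.66 and 3.06 FPKM in the WT libraries. It rose 1.47-fold without overlap (log2 0.44, adjusted p = 0.00914) and did not pass after scaling (log2 0.21, adjusted p = 0.145). Slc25a33 was at 5.59, 5.58 and 5.001 FPKM in the libraries labelled PKI, against 3.64, 5.23 and 4.06 FPKM in the WT libraries, with WT replicate 2 within the range of the libraries labelled PKI. It was not called (log2 0.28, adjusted p = 0.0938), but was without WT replicate 2 (adjusted p = 0.0240). The ratio of Slc25a33 to Slc25a36 was 1.21 ± 0.111 in libraries labelled PKI and 1.46 ± 0.460 in WT libraries, with overlap (exact two-sided permutation p = 0.7), and its log2 difference of −0.22 turned to 0.016 without WT replicate 2.

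The coenzyme A carrier gene Slc25a42 was at 4.71, 4.57 and 5.08 FPKM in the libraries labelled PKI, against 7.02, 4.64 and 7.21 FPKM in the WT libraries. WT replicate 2 fell within the range of the libraries labelled PKI. It was not called as deposited (log2 −0.31, adjusted p = 0.123), was called lower without WT replicate 2 (log2 −0.49, adjusted p = 0.0107) and was called lower after scaling (−0.56, adjusted p = 0.0411). Slc25a16, named for an autoantigen of Graves disease, was nearly level at 4.93 ± 0.0762 FPKM in libraries labelled PKI, against 4.84 ± 0.0985 FPKM in WT (log2 0.02, adjusted p = 0.771; log2 −0.22, adjusted p = 0.0450 after scaling). The carrier genes of S-adenosylmethionine (Slc25a26), of folate and FAD (Slc25a32) and of the peroxisomal membrane (Slc25a17) were at log2 0.08, 0.17 and 0.20, none of the 3 called either way.

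Of 3 tested carriers of iron and glutathione, 0 were called higher or lower by limma, as deposited or after scaling, and their median log2 changes were 0.15 and −0.11. Mitoferrins bring iron into the matrix for haem and iron-sulphur clusters. Slc25a37, the mitoferrin of red cell precursors, was at 2.01, 2.12 and 2.16 FPKM in the libraries labelled PKI, against 2.18, 1.53 and 1.69 FPKM in the WT libraries (log2 0.15, adjusted p = 0.245). Slc25a28, the mitoferrin of other tissues, was at 7.09, 5.57 and 7.18 FPKM in the libraries labelled PKI, against 7.06, 6.47 and 5.98 FPKM in the WT libraries (log2 0.02, adjusted p = 0.910). In both the groups overlapped. Their ratio, Slc25a37 to Slc25a28, was 0.321 ± 0.0520 in libraries labelled PKI and 0.276 ± 0.0373 in WT libraries (exact two-sided permutation p = 0.4, 0.625 adjusted over 5 ratios). Beside them, 5 of 5 tested red blood cell markers were lower, with the 8 listed summing to 275 to 339 FPKM in libraries labelled PKI and 380.3 to 538 FPKM in WT libraries. Slc25a38, a glycine carrier needed for haem synthesis, was at 4.27 ± 0.425 FPKM in libraries labelled PKI, against 4.15 ± 0.338 FPKM in WT (log2 0.03, adjusted p = 0.782). The glutathione carrier gene Slc25a39 was at 14.3, 13.4 and 14.8 FPKM in the libraries labelled PKI, against 11.3, 12.5 and 13.8 FPKM in the WT libraries (log2 0.17, adjusted p = 0.154), with overlap. Its relative Slc25a40 lay under the level for testing, at 0.907, 1.23 and 1.15 FPKM in the libraries labelled PKI, against 0.766, 0.628 and 0.681 FPKM in the WT libraries, without overlap as deposited and with overlap after scaling.

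Of the 12 carriers related to uncoupling proteins or with other or unsettled substrates, 4 were tested. Of these 1 was higher and 1 lower, and after scaling 0 were higher and 2 lower, with median log2 changes of 0.17 and −0.07. Slc25a34 (ENSMUSG00000040740, chromosome 4: 141618824 to 141623821, minus strand), a carrier with no settled substrate, had the largest fall among the tested carriers. It was at 25.5, 22.5 and 24.3 FPKM in the libraries labelled PKI, against 38.4, 30.0 and 40.6 FPKM in the WT libraries. WT replicate 2 was the lowest WT library and still lay above all libraries labelled PKI. Slc25a34 fell 1.51-fold (log2 −0.56, SE 0.12, adjusted p = 0.0109; −0.85 after scaling, adjusted p = 0.00438). Its close relative Slc25a35 (ENSMUSG00000018740, chromosome 11: 68968131 to 68974365, plus strand) moved the other way as deposited, at 1.85, 1.75 and 1.53 FPKM in the libraries labelled PKI, against 1.20, 1.14 and 0.856 FPKM in the WT libraries (log2 0.39, adjusted p = 0.0177; log2 0.22, adjusted p = 0.151 after scaling). The call was lost without PKI replicate 1 (adjusted p = 0.0550) or WT replicate 3 (0.0528). Of the 3677 exon bases of Slc25a35, 1151 overlap exons of Rangrf on the opposite strand. The library kit does not mark strand and Rangrf had 14.2 FPKM in libraries labelled PKI and 12.2 FPKM in WT libraries (log2 0.20, adjusted p = 0.440), so reads from the shared bases cannot be assigned to either gene.

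Slc25a46, an outer membrane protein of mitochondrial shape, was at 13.0, 14.6 and 13.7 FPKM in the libraries labelled PKI, against 15.1, 13.2 and 13.9 FPKM in the WT libraries, with overlap (log2 −0.03, adjusted p = 0.779; log2 −0.31, adjusted p = 0.0271 after scaling). Slc25a30, a relative of the uncoupling proteins, was at 2.09, 2.95 and 1.87 FPKM in the libraries labelled PKI, against 1.61, 1.65 and 1.38 FPKM in the WT libraries, without overlap as deposited and with overlap after scaling. It was not called (log2 0.36, adjusted p = 0.0565). Without PKI replicate 3 it was (adjusted p = 0.0467), while without PKI replicate 2 the log2 change was 0.23 (adjusted p = 0.0928) and without WT replicate 3 the adjusted p was 0.153. The other relatives of uncoupling proteins lay under the level for testing, with Slc25a14 at 0.570 ± 0.160 FPKM in libraries labelled PKI, against 0.306 ± 0.121 FPKM in WT and Slc25a27 at 0.674 ± 0.255 FPKM in libraries labelled PKI, against 0.546 ± 0.0478 FPKM in WT. Slc25a45 was at 1.11, 1.11 and 1.11 FPKM in the libraries labelled PKI, against 0.672, 0.506 and 0.789 FPKM in the WT libraries, below the level for testing and without overlap. Slc25a47, known from liver, ranged from 0.149 to 0.816 FPKM. Slc25a53 reached 0.135 FPKM and Slc25a43 0.250 FPKM. Slc25a43 was at 0 in all WT libraries and in PKI replicate 3.

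**Figure D4:**
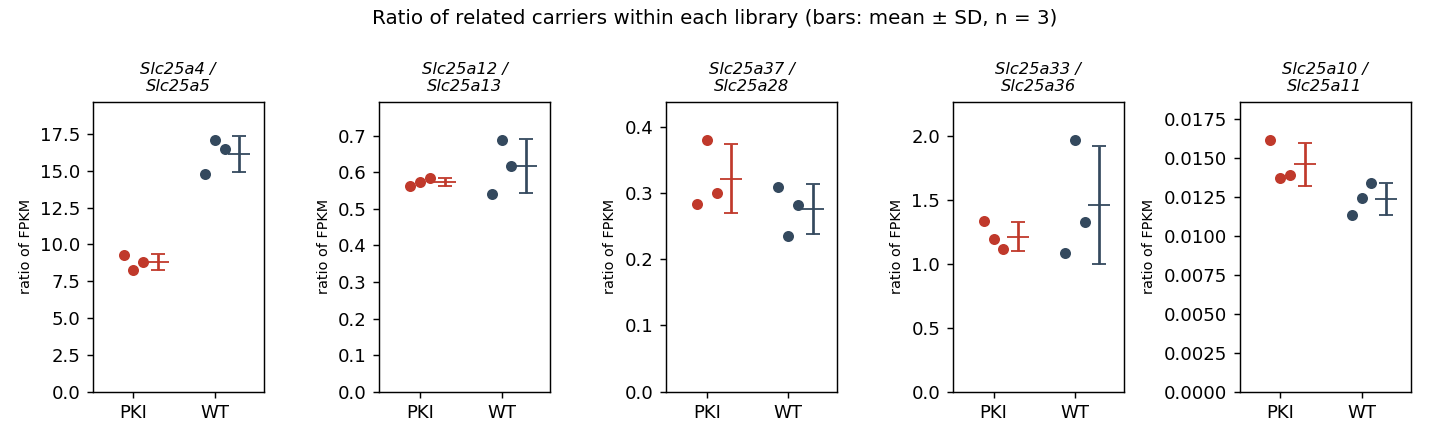
Ratio of FPKM between 2 related carriers in each library, for the 5 pairs with both members at a mean of at least 1 FPKM, each panel with its own axis from 0 and the mean and SD beside the points. The ratio of Slc25a4 to Slc25a5 is 8.79 ± 0.528 in libraries labelled PKI and 16.1 ± 1.22 in WT libraries, while the ratios of Slc25a12 to Slc25a13, Slc25a37 to Slc25a28 and Slc25a33 to Slc25a36 overlap.

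Carriers of the family whose symbols do not follow the Slc25a pattern moved in both directions. Of 4 tested, 2 were higher and 1 lower, and after scaling 0 were higher and 1 lower. Their median log2 change was 0.24 as deposited and −0.03 after scaling. Ucp3, the uncoupling protein of muscle that follows fatty acid supply, was at 2.38, 3.13 and 2.66 FPKM in the libraries labelled PKI, against 5.61, 4.87 and 5.41 FPKM in the WT libraries. It fell 1.95-fold without overlap (log2 −0.76, adjusted p = 0.00198; log2 −0.99, adjusted p = 0.00122 after scaling). Ucp2, found in many tissues, was at 3.41, 1.96 and 3.05 FPKM in the libraries labelled PKI, against 1.91, 1.43 and 1.57 FPKM in the WT libraries (log2 0.51, adjusted p = 0.0371; log2 0.31, adjusted p = 0.222 after scaling). Mtch1, an outer membrane member, was at 12.1 ± 1.21 FPKM in libraries labelled PKI, against 8.82 ± 0.364 FPKM in WT (log2 0.42, adjusted p = 0.00981; log2 0.14, adjusted p = 0.285 after scaling). Ucp1, the brown fat protein, was at 0.0617 FPKM or less.

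Of 9 tested genes of the TIM22 import pathway, which inserts carriers into the inner membrane, 3 were higher and 0 lower, with a median log2 change of 0.21, and after scaling 0 were higher and 1 lower, with a median of 0.01. The small chaperone genes of the intermembrane space Timm10 and Timm10b were at 43.4 ± 1.29 FPKM in libraries labelled PKI, against 30.2 ± 3.65 FPKM in WT (log2 0.51, adjusted p = 0.00674), and at 2.51 ± 0.363 FPKM in libraries labelled PKI, against 1.67 ± 0.229 FPKM in WT (log2 0.39, adjusted p = 0.0259). Of 12 tested genes of other inner membrane carriers and channels, 5 were higher and 0 lower (0 and 2 after scaling), with medians of 0.18 and −0.09. Smdt1, a subunit of the calcium uniporter, was at 45.3 ± 1.14 FPKM in libraries labelled PKI, against 36.0 ± 1.29 FPKM in WT (log2 0.33, adjusted p = 0.00639), and Sfxn3, a sideroflexin, at 2.47 ± 0.371 FPKM in libraries labelled PKI, against 1.46 ± 0.0736 FPKM in WT (log2 0.49, adjusted p = 0.00832). Of 8 tested genes of outer membrane channels, creatine kinases and cyclophilin D, 4 were higher and 0 lower (2 and 3 after scaling), with medians of 0.15 and −0.14. Tspo, an outer membrane protein also abundant in macrophages, rose to 12.6 ± 0.623 FPKM in libraries labelled PKI, against 6.08 ± 1.01 FPKM in WT (log2 0.95, adjusted p = 0.00163; log2 0.68, adjusted p = 0.00972 after scaling). Ckb, the brain-type creatine kinase, rose to 7.55 ± 0.493 FPKM in libraries labelled PKI, against 4.30 ± 0.551 FPKM in WT (log2 0.69, adjusted p = 0.00287; log2 0.44, adjusted p = 0.0255 after scaling). Ckmt2, the mitochondrial creatine kinase of the sarcomere that uses ATP leaving through ANT1, was at 944 ± 54.2 FPKM in libraries labelled PKI, against 795 ± 26.2 FPKM in WT (log2 0.25, adjusted p = 0.0152; log2 −0.05, adjusted p = 0.627 after scaling).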

How the data were processed

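The deposited values are FPKM that the authors computed, 1 per gene and library. The submitters' processing notes name CASAVA, Bowtie 0.12.2 and build mm9, with no role or order, and no source read here names the program behind the FPKM. Per the labels' protocols, TruSeq RNA kits were used, which do not mark strand. Positions come from GENCODE M21 (GRCm38), looked up by identifier. A deposited summary by FPKM interval was not used.

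Of 24705 genes above 0, the 9907 whose mean reached 1 FPKM were tested two-sided as log2(FPKM + 1), a scale on which low genes change less, using limma 3.58.1 (R 4.3.3) with a variance trend and Benjamini-Hochberg adjustment over all of them. Folds are ratios of mean FPKM. Ratios and shares had exact permutation tests. Carriers and lists were chosen with earlier results of these data known. The rule gave values per library for the 10 most abundant carriers, called carriers and tested pairs, and, from each list, the pair of called genes of lowest p a direction. Other carriers shown by library, and Got1, Got2, Cpt1b, Ckmt2 and Ucp1, were added after their values were seen. Alternatives were other pseudocounts, filters, scalings and weights, a replicate block, and each library left out in turn. The planned comparison of protein sequences was not made. Of the tested carriers, 1 enters the counts and medians and is not reported here by name.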

Additional observations from a re-analysis of the deposited data

How the results depend on the processing

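Carriers called higher and lower, 6 and 4 as deposited, were 2 and 10 after division by size factors, 3 and 7 scaled to the nuclear total and 2 and 9 with quantile normalisation. At a minimum mean of 5 FPKM they were 2 and 4. The nuclear total used for scaling leaves out genes of the mitochondrial genome and their nuclear copies. Leaving out 1 library gave 4 to 7 higher and 2 to 4 lower. Over all tested genes, calls higher and lower were 3609 and 293, and became 1739 and 186 at a minimum of 5 FPKM, 775 and 909 after division by size factors, 1019 and 603 scaled to the nuclear total and 753 and 762 with quantile normalisation. Leaving out 1 library gave 2179 to 3162 and 165 to 263. The median log2 change of the tested carriers, 0.10, became 0.14 at a pseudocount of 0.1, −0.14 at a minimum of 5 FPKM, −0.12, −0.054 and −0.13 under the 3 scalings in the same order, and 0.048 to 0.13 without 1 library. Ppargc1a was lower with its test passed under the 3 scalings (log2 −0.44, −0.36 and −0.42). The difference in the family's share of FPKM, −0.0345 percentage points of the total without the mitochondrial genome, was −0.00303 over all genes and −0.237 without nuclear copies as well, the last chosen after seeing the data.

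Carriers that were not called turned sign under the scalings, here in the order of size factors, nuclear total and quantile normalisation: Slc25a39 (−0.11, −0.033, −0.0998), Slc25a10 (−0.078, −0.0199, −0.092), Slc25a15 (−0.16, −0.11, −0.19), Slc25a38 (−0.21, −0.14, −0.21), Slc25a28 (−0.24, −0.17, −0.24), Slc25a26 (−0.14, −0.075, −0.15), Slc25a16 (−0.22, −0.15, −0.21). Under the first and the last of these, Slc25a32 (−0.028 and −0.047), Slc25a17 (−0.045 and −0.036), Slc25a37 (−0.045 and −0.066), Slc25a44 (−0.047 and −0.045) also turned. With array weights, Slc25a15 (−0.0017) and Slc25a38 (−0.0295) turned. Leaving out 1 library turned changes near 0, which ranged over −0.057 to 0.015 for Slc25a29, −0.071 to 0.0201 for Slc25a46, −0.039 to 0.12 for Slc25a28, −0.039 to 0.049 for Slc25a15, −0.018 to 0.097 for Slc25a38 and −0.42 to 0.016 for the log2 ratio of Slc25a33 to Slc25a36.

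Replicate numbers did not pair the samples: the deviations of libraries with the same number correlated at −0.104, 0.00115 and 0.0529, and of the 6 libraries only PKI replicate 3 correlated best with its own number. With the replicate block, 7 carriers were called higher and 2 lower, and over all genes 2625 and 224: Slc25a3 (adjusted p = 0.0563) and Slc25a12 (0.0691) lost their calls and Slc25a30 (0.0491) gained one. Leaving out 1 library after division by size factors gave 1 to 3 higher and 6 to 9 lower carriers, and the replicate block 2 and 7, settings chosen after seeing the data. The absolute depth is unknown, so no counting interval stands beside carriers under 1 FPKM. The cause of these differences was not tested.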
